A study of Mus musculus with 117 samples.

Results

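The Hox genes are homeobox transcription factor genes that lie side by side in 4 clusters of the mouse genome, HoxA, HoxB, HoxC and HoxD. They were taken here as every array probe set annotated with a single gene whose symbol is Hox, a cluster letter from a to d and a position number, with the probe set of highest mean over all samples standing for a gene. This gave 34 Hox genes out of 17097 genes measured (9 of HoxA, 10 of HoxB, 6 of HoxC and 9 of HoxD). Other Hox genes were not analysed here. RNA from 117 samples of C57BL/6 mice was hybridised to single-colour Affymetrix arrays, and each value below is a log2 probe set signal, so that a difference of 1 is a doubling. Normal tissue was dissociated and the cells were separated with MicroBeads against Prom1, a membrane glycoprotein used as a stem cell marker. The Prom1-positive and Prom1-negative cells numbered 3 and 7 samples in lung, 3 and 4 in stomach, 4 and 7 in liver, 3 and 5 in intestine, 4 and 3 in uterus, and 3 and 5 in prostate. The 66 tumours were frozen as whole pieces: 14 bronchial papillary adenomas, 11 gastric adenocarcinomas, 13 hepatocellular carcinomas, 9 uterine and 10 prostatic adenocarcinomas, 3 B-cell lymphomas and, from skin, 6 squamous cell carcinomas. The series speaks of Prom1 conditional mutants that develop tumours, but the labels name no genotype, Cre driver or age for a sample. The labels do not state whether replicates are different animals. The spread behind each p-value is therefore that between these samples and may be technical.

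Hox proteins bind DNA together with cofactors of the TALE homeodomain family and give cells of the embryo their position along the body axis. Genes with low position numbers act from the hindbrain and neck downwards, and those with high numbers act in the caudal trunk, limbs and genital tract, an order called collinearity. Adult cells, above all mesenchymal cells, keep much of this code: Hoxa10 and Hoxa11 are needed in the uterus for implantation, Hoxb13 and Hoxd13 pattern and maintain the prostate, and Hoxa5 is needed for lung development.

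The stretch just before the transcription start is shown for 5 members whose levels set uterus or prostate apart in the results. These 150 bases are from RefSeq on GRCm38.p6, 5′ to 3′ on the gene's own strand and ending at the base before the start, with the dinucleotide CG in capitals. They lie at chr6:52245811-52245960 on the minus strand for Hoxa11, and on the plus strand at chr11:96281755-96281904 for Hoxb8, chr2:74697613-74697762 for Hoxd9, chr2:74691741-74691890 for Hoxd10 and chr2:74668075-74668224 for Hoxd13.
Hoxa11: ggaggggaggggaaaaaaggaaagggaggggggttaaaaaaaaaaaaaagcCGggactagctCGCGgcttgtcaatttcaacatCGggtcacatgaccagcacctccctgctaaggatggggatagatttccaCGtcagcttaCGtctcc
Hoxb8: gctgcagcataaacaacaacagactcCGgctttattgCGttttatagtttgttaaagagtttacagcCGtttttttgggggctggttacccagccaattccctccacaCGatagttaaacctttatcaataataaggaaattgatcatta
Hoxd9: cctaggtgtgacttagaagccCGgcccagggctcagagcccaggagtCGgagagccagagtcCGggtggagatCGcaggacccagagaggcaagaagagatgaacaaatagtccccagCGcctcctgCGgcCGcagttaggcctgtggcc
Hoxd10: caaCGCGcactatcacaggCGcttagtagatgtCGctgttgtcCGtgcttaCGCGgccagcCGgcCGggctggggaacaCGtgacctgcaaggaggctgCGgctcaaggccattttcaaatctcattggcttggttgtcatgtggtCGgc
Hoxd13: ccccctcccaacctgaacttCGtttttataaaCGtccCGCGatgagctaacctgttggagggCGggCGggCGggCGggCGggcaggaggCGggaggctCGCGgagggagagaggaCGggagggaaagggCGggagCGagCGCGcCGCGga
The stretch of Hoxd13 holds 19 CG, that of Hoxd10 12, Hoxd9 7, Hoxa11 6 and Hoxb8 4. Over the 250 bases before the start the numbers of CG were 31, 20, 13, 13 and 12, and as many or more were held by 5.19%, 17.9%, 31.5%, 31.5% and 33.5% of 32851 RefSeq windows. The median was 12 over 23 windows of 21 members, from 2 to 35, against 6 over all windows. TCGTAAA, a sequence that Hox proteins of high position number prefer, was searched on both strands of the whole 300-base windows and occurred in those of Hoxb8 and Hoxd11 (0.597% of all windows). TGATTGAT, the form bound by Hox proteins with Pbx, occurred in those of Hoxa2 and Hoxd11 (0.746%).

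Array medians lay between 3.63 and 4.01 and upper quartiles between 5.05 and 6.53; 6 arrays, all of sorted cells, had an upper quartile under 6. A member is called dim in a group where it lay under the array median in every sample, and a difference against a dim group is a lower bound. Hoxb1 (mean over all arrays 2.59), Hoxb7 and Hoxd1 were under the median in all 117 arrays, and Hoxa4, Hoxc5, Hoxc13 and Hoxd12 were above it in 1 or 2. A member had to be above the array median in 3 arrays to be tested, which left 26 among sorted cells, 27 in tumours against normal cells and 23 among tumours. Members that passed through one tissue where they are high had to differ there, so the counts below describe them and support nothing more. Of the tissue markers, 4 of 4 for prostate, 6 of 6 for stomach, 5 of 6 for liver, 4 of 5 for lung and for intestine and 4 of 6 for uterus were highest in their own normal tissue, and the oestrogen receptor gene Esr1 was dim in the sorted uterus groups. Among tumours 6 of 6 liver, 5 of 5 lung, 5 of 5 squamous, 5 of 5 B-cell and 3 of 4 prostate markers were highest in their own type, but 3 of 6 uterus markers and 2 of 6 stomach markers were; the stomach markers Gkn2, Atp4a, Atp4b and Sox2 and the uterus markers Esr1, Foxa2 and Wnt7a were not.

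Some libraries stood apart from the rest of their group. In the libraries labelled gastric adenocarcinoma 1 and 2 the summed level of 6 stomach markers was 6.72 to 6.82, below the other 9 (7.46 to 15.14), and that of the uterus markers was 11.36 to 12.90, above the others (8.09 to 10.93), which goes against their label. Both had 7 HoxB genes, Hoxb2 to Hoxb6, Hoxb8 and Hoxb9, more than 1 above every other gastric tumour. Liver Prom1-positive sample 2 had a summed endothelial marker level of 13.53, against 9.32 to 10.56 in the other 3 and 12.34 to 13.40 in negative liver cells. It exceeded those 3 by more than 1 in Hoxa2, Hoxa5 and Hoxb2 to Hoxb5. The stomach Prom1-negative sample with the lowest upper quartile of all arrays exceeded the other 3 of its group by more than 1 in 10 members, among them Hoxa13, Hoxc5, Hoxc9 and Hoxd12. Skin carcinomas 1 and 2 and uterine adenocarcinoma 9 each exceeded the rest of their type by more than 1 in 7 members. Several results below are also given without them.

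**Figure D1:**
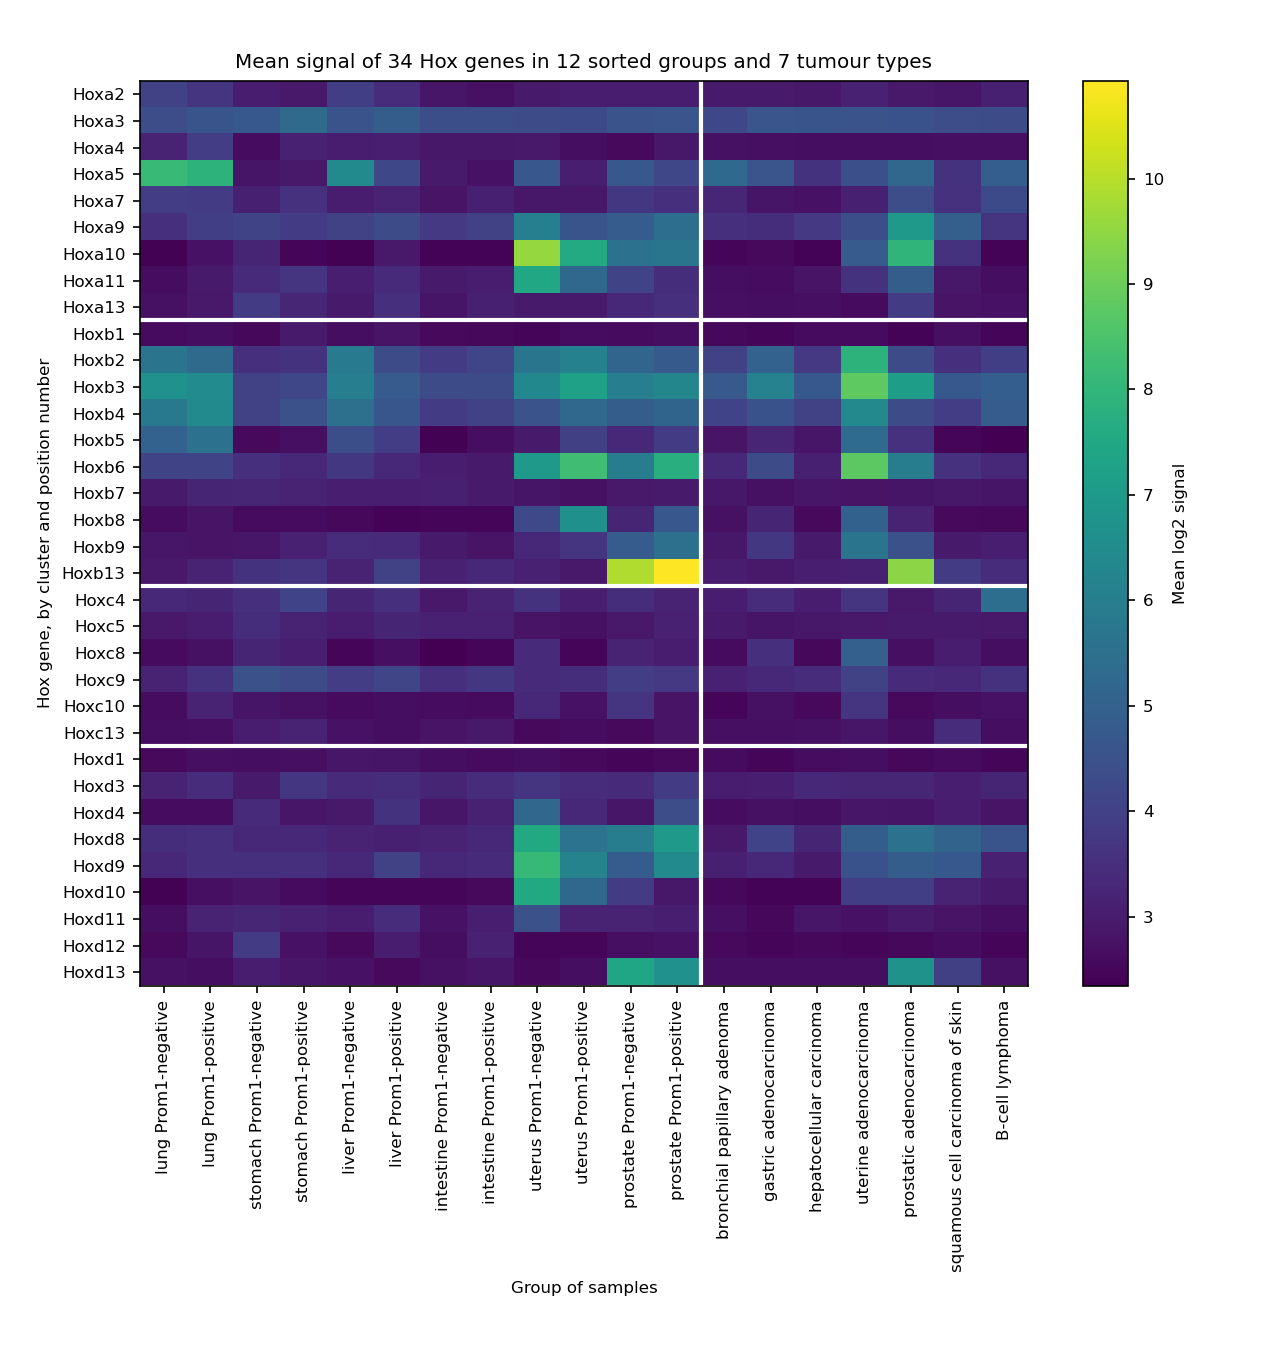
Mean log2 signal (colour) of 34 Hox genes, in rows by cluster and position number, in 12 sorted groups and 7 tumour types, in columns. Hoxa9 to Hoxa11 and Hoxd8 to Hoxd10 are bright in uterus, and Hoxb13 and Hoxd13 in prostate and prostatic tumours. Over both sorts Hoxa9 and Hoxd8 are about as bright in prostate as in uterus, and Hoxa9 and Hoxa10 are bright in prostatic tumours. Hoxa5 is bright in lung, and Hoxb2 to Hoxb6 in uterine tumours. Colours of different genes are different probe sets and cannot be ranked.

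Across the 6 normal tissues most Hox genes of high position number were brightest in uterus or prostate. Several of lower number, such as Hoxb2, Hoxb3 and Hoxd4, were too, and others of low or middle number were brightest in lung. In limma's moderated F test 24 of 26 members differed among tissues, where 90.1% of all genes tested did. Hoxa13 and Hoxd3 were not called. Of the 26 members, 12 had their highest mean in uterus (Hoxa9, Hoxa10, Hoxa11, Hoxb2, Hoxb3, Hoxb6, Hoxb8, Hoxd4, Hoxd8, Hoxd9, Hoxd10, Hoxd11), 5 in prostate (Hoxb9, Hoxb13, Hoxc10, Hoxd3, Hoxd13), 5 in lung (Hoxa2, Hoxa5, Hoxa7, Hoxb4, Hoxb5) and 4 in stomach (Hoxa3, Hoxa13, Hoxc4, Hoxc9). None was highest in liver or intestine. Some of these ranks were near ties. Hoxa9 averaged 5.21 in uterus and 5.06 in prostate, Hoxd8 6.45 and 6.33, and Hoxb3 6.86 in uterus and 6.63 in lung. For Hoxa9 uterus negative sample 3, at 7.71, lay above every other uterus sample. Hoxa13 was highest in stomach through the negative sample of lowest upper quartile, at 7.14 against 2.59 to 2.87 in the other 3 of its group. Without that sample its mean was 3.0 in stomach and highest in prostate (3.38), and that of Hoxc9 was 4.03 in stomach, next to 3.98 in liver. Over the 19 group means, the 23 pairs of neighbouring tested members of a cluster had a median Pearson r of 0.59, other pairs of a cluster 0.356 and pairs from different clusters 0.144. These r share libraries and arrays and are a description. The most alike were Hoxb13 with Hoxd13 (r = 0.98) and Hoxa11 with Hoxd10 (r = 0.95), members of different clusters.

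Prostate and uterus together, the most caudal organs of the series, were set against lung, intestine, liver and stomach to ask whether the order of position numbers shows in adult cells. Of 26 members 17 were higher in prostate and uterus (background 32.1% of genes) and 2 were lower (background 24%), with 12 higher by more than 1. The median difference of the members was 0.91, against 0.07 over all genes. Of members numbered 9 to 13, 10 of 12 were higher and none lower (median 1.61). Of those numbered 5 to 8, 3 of 6 were higher (median 1.04), and of those numbered 1 to 4, 4 of 8 were higher and 2 lower (median 0.17). The HoxD genes were higher in 7 of 7 cases (median 2.05) and the HoxB genes in 6 of 8 (median 1.33). In HoxA 3 of 8 were higher and 2 lower, and in HoxC 1 of 3 was higher.

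Hoxd8 was the member without overlap between these organs: it ran from 5.02 to 7.21 in prostate and from 4.99 to 7.91 in uterus, and reached 4.19 at most elsewhere (difference 3.22, SE 0.13, limma adjusted p = 6.59e-25). Hoxa10 had the largest difference, 4.47 (SE 0.18, limma adjusted p = 5.86e-25), which is 22.2-fold. It lay at 6.78 to 9.88 in uterus and 4.58 to 6.15 in prostate, and at 3.40 at most in lung, liver and intestine. The stomach negative sample of lowest upper quartile, at 5.70, was the only sample of another tissue within the prostate range. Hoxb6, a gene from the middle of HoxB, lay at 6.43 to 8.63 in uterus and 4.73 to 8.35 in prostate, against 3.16 to 5.31 in lung and 4.74 at most in the other tissues (3.74, SE 0.18). Hoxb6 overlapped with them through the lowest prostate sample alone, the others being at 6.01 or more. The differences of Hoxb13 (3.34, SE 0.10) and Hoxd13 (2.05, SE 0.15) came from prostate, at 9.32 to 11.50 and 5.78 to 8.49, since in uterus they reached 3.35 and 2.80. The other probe set of Hoxd13 gave a difference of -0.04. Hoxd9 (2.90, SE 0.15), Hoxd10 (2.33, SE 0.11), Hoxb8 (2.13, SE 0.15) and Hoxa11 (1.93, SE 0.13) had higher means in uterus than in prostate.
The remaining higher members were Hoxb3 (1.37), Hoxb9 (1.30), Hoxa9 (1.27), Hoxd4 (0.93), Hoxb2 (0.89), Hoxd11 (0.40), Hoxc10 (0.40) and Hoxd3 (0.24). The lower ones were Hoxa2 (-0.33) and Hoxa3 (-0.22). The other probe set of Hoxb3 gave a difference of 0.22. The calls of Hoxa2 and Hoxd3 were each lost when 1 sample was left out, in 27 and 14 cases (limma adjusted p up to 0.0828 and 0.128), and that of Hoxa3 without prostate positive sample 3 (adjusted p = 0.0777). Hoxd11 turned to -0.09 among positive samples alone. Markers of other cell types moved in the same comparison: 10 of 10 fibroblast and matrix markers (median 3.22), 5 of 5 smooth muscle, 6 of 6 macrophage, 7 of 8 epithelial and 5 of 6 mesothelial markers were higher in prostate and uterus, and 5 of 6 T and NK cell markers were lower. The summed fibroblast and matrix level was 10.43 to 15.05 in the uterus and prostate samples and 7.24 to 13.99 in the others. Their part in the Hox differences was not tested. In bulk samples fewer cells of a type and less RNA per cell cannot be told apart.

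Prostate and uterus divided these genes between them. Prostate minus uterus was called in 11 of 26 members, 4 higher in prostate (background 13.8%) and 7 higher in uterus (background 14.8%), and the member median was 0.02 against -0.01 over all genes. Hoxb13, which acts in the development of the ventral prostate, was higher in prostate by 7.39 (SE 0.17, limma adjusted p = 1.9e-34) and Hoxd13, the last HoxD gene, by 4.45 (SE 0.25). Neither overlapped with uterus, where both were dim. Hoxb9 (1.69, SE 0.26) and Hoxa7 (0.72, SE 0.21) followed. On the uterus side Hoxd10 differed by -2.99 (SE 0.18) and Hoxa10 by -2.94 (SE 0.30), again without overlap, and Hoxa11 by -2.58 (SE 0.22). Hoxd9 (-1.51), Hoxb8 (-1.47), Hoxd11 (-0.71) and Hoxd4 (-0.62) were also higher in uterus. In positive samples alone Hoxd4 was higher in prostate by 1.05 (limma adjusted p = 0.0321), and Hoxd9 (0.25), Hoxd11 (-0.13) and Hoxa7 (0.62) were not called. The call of Hoxd4 was lost without any 1 of 8 samples (adjusted p up to 0.11) and that of Hoxd11 without uterus negative sample 1 (adjusted p = 0.0715).

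Each tissue was also set against the mean of the other 5. In lung 7 of 26 members were higher (background 24.8%), with position numbers from 2 to 7. Hoxa5 lay at 6.08, 8.44 and 9.49 (lowest, median, highest of 7) in negative lung cells and at 9.27, 6.58 and 7.82 in the 3 positive samples, and exceeded the other tissues by 4.13 (SE 0.36, limma adjusted p = 3.62e-13). Negative liver cells, at 5.26 to 7.40, were the only other group with all its samples above 5. Hoxb5 (2.02), Hoxb4 (1.5), Hoxb3 (1.25), Hoxb2 (0.78), Hoxa2 (0.74) and Hoxa7 (0.72) were the other members higher in lung. In uterus 12 members were higher (background 26.5%), led by Hoxa10 (5.34, SE 0.23) and Hoxd10 (3.66, SE 0.14), whose uterus values lay above every other tissue. In prostate 11 were higher (background 23%), led by Hoxb13 (7.11, SE 0.13) and Hoxd13 (4.31, SE 0.19), which did not overlap with other tissues, and Hoxb6 (2.54, SE 0.23). In liver 3 were higher (background 21.3%), Hoxa5 (0.93), Hoxb5 (0.67) and Hoxa2 (0.57). Without liver positive sample 2 Hoxa2 was at 0.40 and called, and Hoxa5 (0.32, limma adjusted p = 0.306) and Hoxb5 (0.16, adjusted p = 0.595) were not. In stomach 3 were higher (background 19.2%), Hoxc9 (0.72), Hoxc4 (0.54) and Hoxa3 (0.51). Without the stomach negative sample of lowest upper quartile Hoxc4 and Hoxa3 were called and Hoxc9 was not (0.36, limma adjusted p = 0.0596). In intestine 0 were higher (background 29.6%) and 18 lower (background 27.7%) by limma's test. Hoxa10 ran only from 2.20 to 2.59 there and Hoxa5 from 2.59 to 3.12. Lower levels were not particular to intestine. Member medians were -0.86 in intestine, -0.59 in stomach, -0.43 in lung and -0.12 in liver. Over all genes they were 0.03, -0.13, -0.09 and -0.17. The member median was thus below that of all genes in stomach and lung too, but not in liver. In intestine 8 of 8 HoxB genes were lower (median -1.20), and their median in stomach was -1.11.

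**Figure D2:**
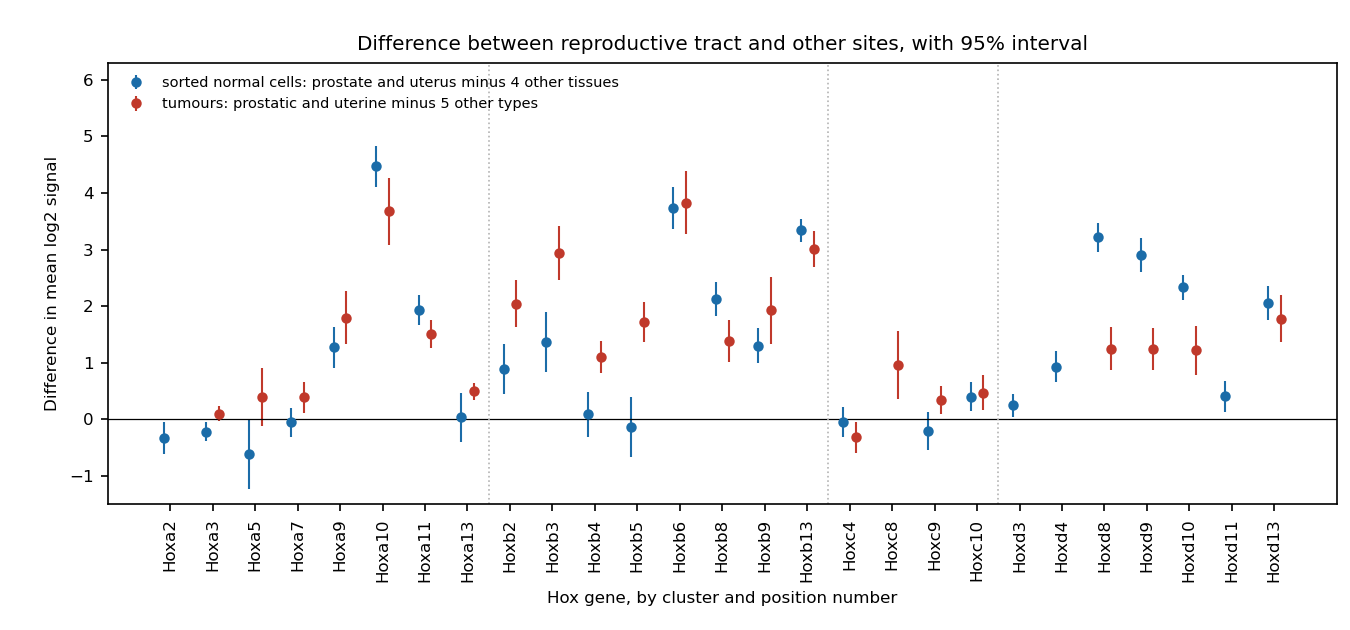
Difference in mean log2 signal (points) with 95% interval (bars) for each Hox gene tested: normal prostate and uterus minus 4 other tissues, and prostatic and uterine tumours minus 5 other types. Hoxa10, Hoxb6 and Hoxb13 lie at 3.0 or above in both; Hoxd8 (3.22 and 1.24) has the larger value in normal cells and Hoxb5 (-0.14 and 1.72) in tumours, and these come from different fits and were not tested against each other.

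Prom1-positive cells were set against Prom1-negative cells of the same tissue to ask whether Hox genes mark the Prom1-positive fraction. In uterus Hoxa9 to Hoxa11, Hoxd4 and Hoxd8 to Hoxd11 were lower in positive cells and 2 HoxB genes were higher. Hoxa13 and Hoxd13 were not called there. In prostate 3 of 8 HoxB and 3 of 7 HoxD genes were higher and Hoxc10 and Hoxd10 lower. In lung (background 0.391% of genes higher, 1.11% lower), stomach (2.29% and 0.888%) and intestine (0% and 0.199%) limma called 0 of 26 members, with 1, 2 and 0 members at an unadjusted p under 0.05. The lowest adjusted p there was that of Hoxa3 in stomach, 0.0782 (limma, difference 0.61, 95% interval 0.22 to 1.01). In lung the lowest was that of Hoxc10, with a difference of 0.59 (0.03 to 1.14), and in intestine Hoxa10 differed by 0.03 (-0.80 to 0.85). In stomach 1 member was called without negative sample 1 and 2 without positive sample 1.

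In uterus 10 of 26 members were called, 2 higher (background 5.31%) and 8 lower (background 5.64%), each by more than 1, and the member median was -0.11 against 0.03 over all genes. The 8 lower members were 3 of 8 HoxA and 5 of 7 HoxD genes, and both higher members were among the 8 HoxB genes. In the values that follow the 3 negative samples come first and then the 4 positive ones. Hoxd10, whose upstream stretch is shown above, was at 8.05, 7.16 and 7.48 against 5.28, 5.27, 4.89 and 5.43 (-2.35, SE 0.26, limma adjusted p = 9.17e-09). Hoxa11 was at 7.52, 7.51 and 7.45 against 4.05, 5.73, 5.10 and 6.06 (-2.26, SE 0.31, limma adjusted p = 1.34e-06). The groups did not overlap for either gene, and the negative samples of Hoxa11 lay closer together than the positive ones. Hoxa10, the implantation gene, was at 9.86, 9.88 and 9.0 against 6.78, 7.77, 7.88 and 7.91 (-2.0, SE 0.43, limma adjusted p = 0.000943). Hoxd8 was at 7.91, 7.72 and 7.09 against 4.99, 5.71, 5.65 and 6.05 (-1.97, SE 0.31). Hoxd9, its neighbour in the cluster, was at 8.58, 7.95 and 7.78 against 5.26, 6.07, 6.4 and 7.01 (-1.92, SE 0.36). For these 3 genes too every positive sample lay below every negative one. Hoxd4 was at 5.43, 5.50 and 4.61 against 2.91, 3.21, 3.83 and 3.36 (-1.85, SE 0.33). Hoxb8 was at 4.26, 5.54 and 2.89 against 6.53, 7.74, 6.06 and 6.22 (2.41, SE 0.37, limma adjusted p = 6.35e-06). Hoxb8 is the member with the largest rise in positive uterus cells, and its groups did not overlap, though negative sample 3 was low. Hoxa9 was at 4.95, 5.51 and 7.71 against 3.92, 4.19, 4.35 and 5.80 (-1.49, SE 0.43), which overlap, and its call was lost without negative sample 3 (-0.66, limma adjusted p = 0.416) and without positive samples 1 or 2.
Hoxb6 rose by 1.35 (SE 0.44, limma adjusted p = 0.0367) and Hoxd11 fell by 1.29 (SE 0.32). The call of Hoxb6 was lost without any 1 of 5 samples (limma adjusted p up to 0.245) and that of Hoxd11 without negative sample 1 (adjusted p = 0.0948). With array weights 17 members were called. In the same comparison 5 of 10 fibroblast and matrix markers fell (median -1.65), with a summed level of 14.93 to 15.05 in negative and 13.55 to 14.25 in positive cells and no marker dim in either. Of 6 macrophage markers 5 rose (median 3.51), with a summed level of 10.89 to 11.64 in negative and 13.95 to 14.40 in positive cells. Of 6 T and NK cell markers 4 fell, and Cd3g, Cd2, Nkg7, Gzmb and Il2rb were dim in positive cells. Of 8 epithelial markers 1 rose. Their part in the Hox differences was not tested.

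In prostate 8 of 26 members were called, 6 higher in positive cells (background 3.21%) and 2 lower (background 5.98%), and the member median was 0.16 against 0.10 over all genes. The higher members were 3 of 8 HoxB and 3 of 7 HoxD genes. In the values that follow the 5 negative samples come first and then the 3 positive ones. Hoxb6 was at 4.73, 6.01, 6.25, 6.77 and 6.01 against 7.80, 7.17 and 8.35 (1.82, SE 0.42, limma adjusted p = 0.00234). Hoxd9 was at 3.56, 5.51, 4.40, 5.04 and 5.68 against 6.45, 5.89 and 6.98 (1.60, SE 0.34, limma adjusted p = 0.000953). Hoxd4, dim in negative cells, was at 2.99, 2.76, 2.94, 3.08 and 2.60 against 4.15, 4.66 and 4.34 (1.51, SE 0.32). None of these 3 genes overlapped between the groups. Hoxb8, dim in negative cells too, was at 3.05, 3.08, 3.48, 3.37 and 3.17 against 5.74, 4.78 and 3.56 (1.46, SE 0.35), and its call was lost without positive sample 1 (limma adjusted p = 0.13). Hoxd8 was at 5.02, 6.22, 5.46, 6.90 and 6.13 against 7.12, 6.58 and 7.21 (1.03, SE 0.30). Hoxb13, high in both groups, was at 10.04, 9.88, 10.62, 9.65 and 9.32 against 10.43, 11.50 and 10.84 (1.03, SE 0.23). Hoxd8 and Hoxb13 overlapped between the groups. Hoxb13 lost its call without positive sample 2 (limma adjusted p = 0.0887) and Hoxd8 without any 1 of 4 samples (up to 0.111). Hoxd10, dim in positive cells, was at 3.44, 4.14, 3.94, 4.11 and 3.77 against 2.99, 2.93 and 2.82 (-0.97, SE 0.25). Hoxc10, also dim in positive cells, was at 2.93, 4.51, 3.75, 4.08 and 3.17 against 2.78, 2.38 and 3.21 (-0.90, SE 0.29) and lost its call without any 1 of 5 samples (limma adjusted p up to 0.329). Hoxd10 did not overlap between the groups and Hoxc10 did. The count was 5 in a fit of all 117 samples and 3 in a fit of the prostate samples alone. Beside this, 6 of 10 fibroblast and matrix markers fell (median -2.75), with a summed level of 13.75 to 14.54 in negative and 10.43 to 12.44 in positive cells, where Col1a2 was dim. Of 6 endothelial markers 4 fell and of 6 T and NK cell markers 5. Their part in the Hox differences was not tested.

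The direction differed between uterus and prostate for some members. Hoxd4, Hoxd8 and Hoxd9 fell in positive uterus cells and rose in positive prostate cells, and the tissue by sort interaction over 6 tissues was called for each of them (limma adjusted p = 1.31e-05, 5.2e-05 and 3.61e-05). It was called for 10 of 26 members (background 21.2%), the others being Hoxa10, Hoxa11, Hoxb6, Hoxb8, Hoxb13, Hoxd10 and Hoxd11. Without liver positive sample 2 it was called for 16. Hoxb6 and Hoxb8 rose and Hoxd10 fell in positive cells of both organs.

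In liver 1 of 26 members was higher in positive cells (background 4.2%) and 2 were lower (background 16.5%). Hoxb13 was at 3.98, 3.87, 3.84 and 4.34 in positive liver samples 2 to 5 against 3.0, 3.13 and 3.74 (lowest, median, highest of 7) in negative ones (0.84, SE 0.20, limma adjusted p = 0.00176). Hoxa5 was at 7.87, 3.02, 2.58 and 3.38 against 5.26, 6.3 and 7.40 (-2.25, SE 0.59). Hoxb2 was at 6.09, 3.93, 3.46 and 3.93 against 5.01, 6.13 and 6.81 (-1.55, SE 0.43). Positive sample 2, the sample with the high endothelial level, was the one positive sample of Hoxa5 and Hoxb2 not below the negative ones. Without it 8 members were called in liver, and without positive sample 4 1 was. In the same comparison 4 of 6 endothelial markers (median -2.08), 6 of 6 T and NK cell and 6 of 6 macrophage markers fell. Their part was not tested.

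In the mean of 6 tissues 2 of 26 members were higher in positive cells (background 5.05%), Hoxb8 by 0.65 (SE 0.14, limma adjusted p = 0.00103) and Hoxb13 by 0.35 (SE 0.09). Hoxd10 was lower by -0.53 (SE 0.10; background 8.56%). The member median was 0.02, as over all genes. The number called was 7 without the stomach negative sample of lowest upper quartile, 6 without prostate positive sample 1 or liver positive sample 2, 5 without any 1 of 4 other samples, and 11 with array weights. The Prom1 transcript itself averaged 8.42 in negative and 10.18 in positive prostate cells, 9.91 and 11.37 in uterus and 10.21 and 11.85 in stomach. It averaged 8.66 and 9.20 in intestine, 6.55 and 6.56 in lung and 2.94 and 3.17 in liver. The Hox calls did not follow these levels in every tissue, since stomach had 0 members called.

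**Figure D3:**
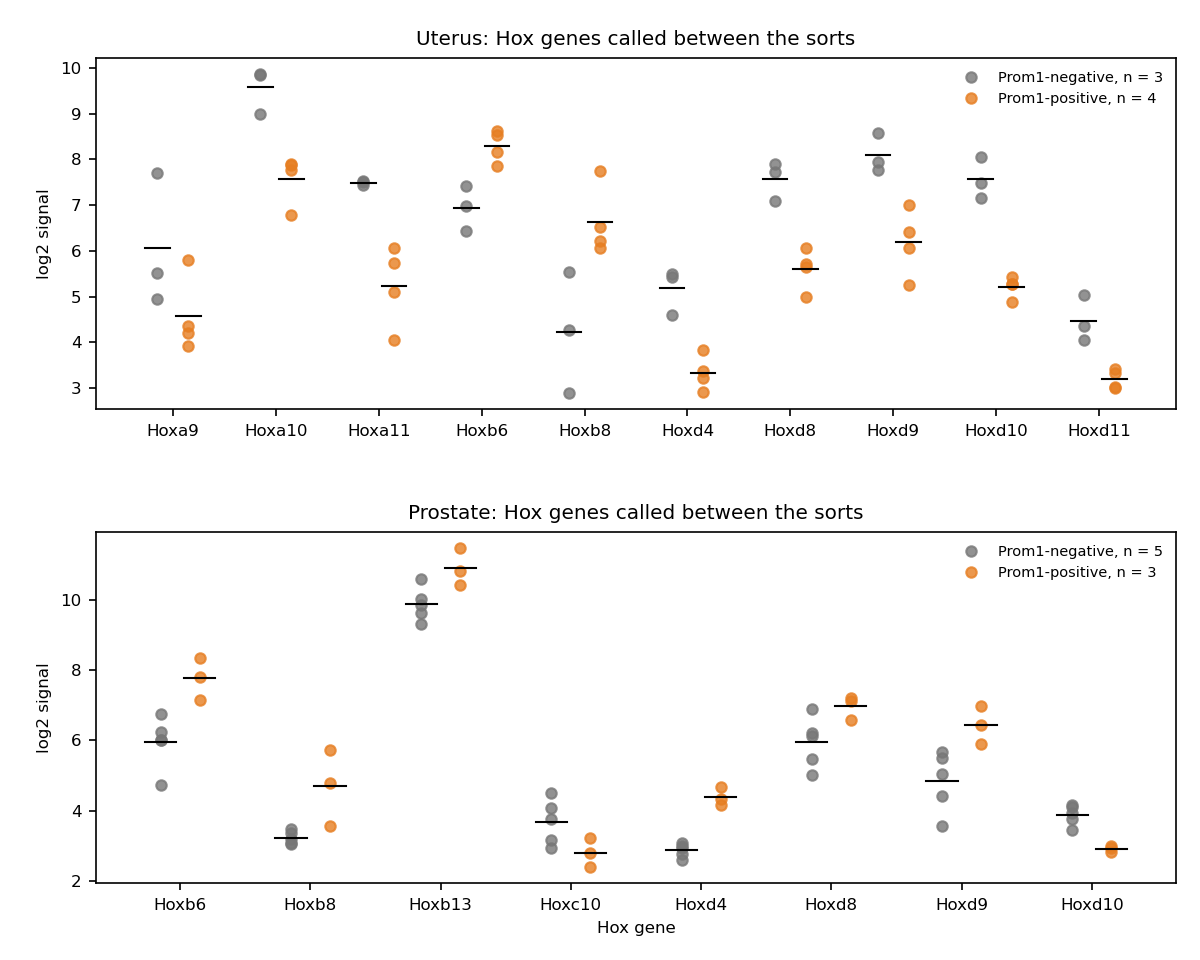
Log2 signal of each sample (points) and group mean (bars) for the Hox genes called between Prom1-negative and Prom1-positive cells, in uterus above and prostate below. In uterus the HoxA and HoxD genes lie lower in positive cells and Hoxb6 and Hoxb8 higher; in prostate Hoxd4, Hoxd8 and Hoxd9 lie higher in positive cells.

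Tumours were set against the mean of both sorted groups of their organ. Tumours were whole frozen tissue and normal cells had been dissociated and bead-sorted, so tumour state and preparation cannot be told apart. In uterine adenocarcinomas most HoxB genes were higher, and Hoxa10, Hoxa11, Hoxd4 and Hoxd8 to Hoxd11 were lower, than in uterus cells. Of 27 members 8 rose (background 16.4%) and 7 fell (background 12.4%), 14 of them by more than 1, with a median of 0.16 against 0.05 over all genes. The rises were 6 of 8 HoxB genes (median 1.71) and 2 of 4 HoxC genes, and the falls 2 of 8 HoxA and 5 of 7 HoxD genes (median -1.40). Hoxb2 ran from 6.72 over 8.01 to 8.23 (lowest, median, highest of 9 tumours), above the 5.20 to 6.49 of uterus cells (1.98, SE 0.37, limma adjusted p = 8.59e-06). Hoxb3 ran from 7.99 over 8.68 to 9.58, against 6.10 to 7.44 (2.02, SE 0.43). Neither overlapped, nor did Hoxb4 (1.51, SE 0.28). Hoxb9 ran from 3.36 over 5.82 to 7.30 (2.17, SE 0.44) and Hoxc8, dim in uterus cells, from 2.44 over 4.85 to 8.76 (2.04, SE 0.42). Both overlapped with uterus cells at their lowest tumours. Hoxb5 (1.90), Hoxb6 (1.16) and Hoxc10 (0.62) rose as well. Hoxa10 ran from 2.43 over 4.08 to 8.08 in the tumours (-3.76, SE 0.45, limma adjusted p = 2.5e-11). Tumours 4, 7 and 9 were at 8.08, 7.16 and 7.58 and the other 6 at 4.75 or less. Hoxa11 ran from 2.58 over 3.31 to 5.56 (-2.75, SE 0.21), Hoxd9 from 3.13 over 4.24 to 7.15 (-2.63, SE 0.30) and Hoxd10 from 2.35 over 2.92 to 6.53 (-2.47, SE 0.32). Hoxd8 (-1.71), Hoxd4 (-1.40) and Hoxd11 (-1.06) fell too. For each of the 7 genes that fell the highest tumour reached into or above the range of positive uterus cells.
Against Prom1-positive uterus cells alone, Hoxd8 (-0.72, limma adjusted p = 0.126), Hoxd4 (-0.48), Hoxd11 (-0.41) and Hoxb6 (0.49, limma adjusted p = 0.566) were not called. The call of Hoxc10 was lost without tumour 9 (limma adjusted p = 0.362). Leaving out 1 uterus sample lost the call of Hoxc10 in 5 cases and that of Hoxb6 in 3 (adjusted p up to 0.12 and 0.0921). In this comparison 5 of 10 fibroblast and matrix markers fell (median -0.97; summed level 11.68 to 14.92 in tumours), and 3 of 5 squamous and 4 of 6 neutrophil markers rose. Their part was not tested.

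In prostatic adenocarcinomas more members fell than rose against prostate cells. The rises were 4 of 8 HoxA and 1 of 8 HoxB genes. The falls were 3 of 8 HoxB, 1 of 4 HoxC and 4 of 7 HoxD genes. Of 27 members 5 rose (background 20.9%) and 8 fell (background 15.8%), with a median of -0.38 against 0.01 over all genes. Hoxa10 ran from 7.05 over 8.01 to 8.43 in the 10 tumours, above all prostate cells, at 4.58 to 6.15 (2.31, SE 0.42, limma adjusted p = 5.49e-06). Hoxa9, its neighbour, ran from 4.82 over 7.14 to 7.85, against 4.33 to 5.88 (1.82, SE 0.35). Hoxa11 ran from 4.48 over 4.83 to 5.41, against 3.12 to 4.86 (1.08, SE 0.20). Of these 3 neighbours Hoxa9 and Hoxa11 overlapped with prostate cells. Hoxb3 (1.02) and Hoxa7 (0.74) rose as well. Hoxb13 fell by 0.97 (SE 0.23), and its 7.95, 9.24 and 10.97 in tumours (lowest, median, highest) overlapped with the 9.32 to 11.50 of prostate cells. Hoxd8 (-0.88), Hoxd4 (-0.80), Hoxd9 (-0.77), Hoxb8 (-0.74), Hoxc10 (-0.68), Hoxb4 (-0.66) and Hoxd3 (-0.38) fell too. Against Prom1-negative prostate cells alone 6 members were called, and Hoxb13 (-0.45, limma adjusted p = 0.175), Hoxd8 (-0.36), Hoxd4 (-0.04), Hoxd9 (0.03), Hoxb8 (-0.01), Hoxb4 (-0.55) and Hoxd3 (-0.14) were not. Without prostate positive sample 3 the count was 8, and the calls of Hoxb3, Hoxb4 and Hoxd9 were lost without any 1 of 4, 5 and 4 samples (limma adjusted p up to 0.127, 0.199 and 0.106). Of 4 prostate markers 4 fell (median -6.38), and of 5 smooth muscle markers 5 rose (median 2.88; summed level 11.06 to 12.80 in tumours, 7.52 to 11 in negative and 8.17 to 8.34 in positive cells). Their part in the Hox differences was not tested.

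**Figure D4:**
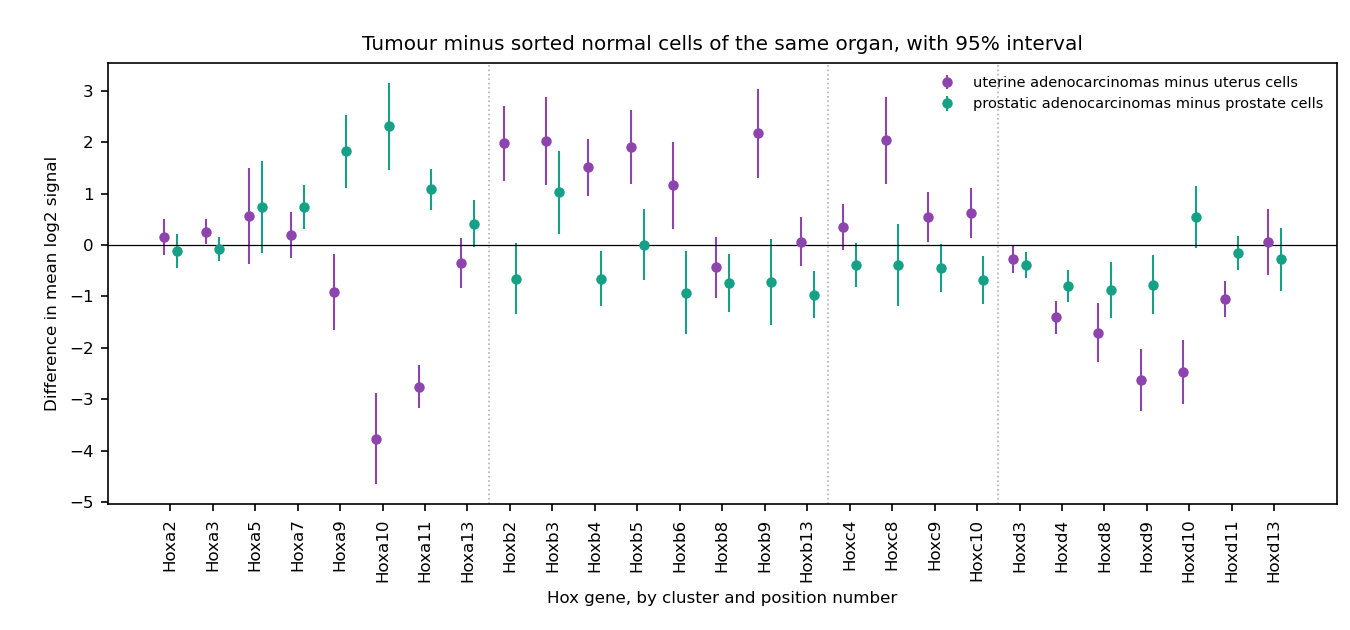
Tumour minus sorted normal cells (points, difference in mean log2 signal) with 95% interval (bars) for 27 Hox genes in uterus and prostate. Hoxa10 lies at 2.31 in prostate and -3.76 in uterus, and Hoxb2 at -0.65 and 1.98.

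In bronchial papillary adenomas Hox genes of low number fell. Of 27 members 0 rose (background 23.4%) and 9 fell (background 19.7%) by limma's test, with position numbers from 2 to 7, and the member median was -0.26 against 0.00 over all genes. Hoxa5 ran from 3.35 over 5.29 to 7.58 (lowest, median, highest of 14 tumours), against 6.08 to 9.49 in lung cells (-2.72, SE 0.41, limma adjusted p = 1.61e-08). Hoxb4 ran from 3.68 over 4.02 to 4.53, below every lung sample (-2.07, SE 0.24). Hoxb5, dim in the tumours, ran from 2.21 over 2.60 to 3.61 (-2.50, SE 0.31). These are among the members that set normal lung apart. Hoxb3 (-1.85), Hoxb2 (-1.47), Hoxa2 (-0.86), Hoxa7 (-0.64), Hoxd3 (-0.27, dim on both sides) and Hoxa3 (-0.27) followed. The calls of Hoxa3 and Hoxd3 were each lost without any 1 of 2 samples (limma adjusted p up to 0.0823 and 0.156). In the same tumours 9 of 10 fibroblast and matrix markers fell (median -2.14; summed level 9.05 to 11.55, against 13.12 to 13.99 in negative and 11.64 to 13.06 in positive lung cells), 6 of 6 endothelial markers fell and 7 of 8 epithelial markers rose. Their part was not tested.

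In hepatocellular carcinomas 0 of 27 members rose (background 29.2%) and 12 fell (background 18%) by limma's test, with a median of -0.43 against 0.07 over all genes. The falls over 1 were those of Hoxa5 (-1.72, SE 0.39), Hoxb2 (-1.35), Hoxb5 (-1.31) and Hoxb4 (-1.07). Hoxa5 ran from 2.91 over 3.51 to 5.04 in 13 tumours, against 5.26 to 7.40 in negative and 2.58 to 7.87 in positive liver cells. Positive sample 2 was at 7.87 and the other 3 positive samples at 2.58 to 3.38. Hoxa2 (-0.81), Hoxd9 (-0.71), Hoxd4 (-0.60), Hoxc9 (-0.58), Hoxa13 (-0.56), Hoxb13 (-0.51), Hoxa11 (-0.43) and Hoxd11 (-0.37) fell by less. Against positive liver cells alone Hoxa5 (-0.60, limma adjusted p = 0.403), Hoxb2 (-0.57) and Hoxb4 (-0.63) were not called. Without positive sample 2 in that reference the difference was 0.62 for Hoxa5, 0.0062 for Hoxb2, 0.045 for Hoxb4 and -0.03 for Hoxb5, none of them called (limma adjusted p from 0.386 to 0.995), and 4 members were called, Hoxb13, Hoxc9, Hoxd4 and Hoxd9. Against negative cells alone 6 members were called. The calls of Hoxa11, which was dim on both sides, Hoxd11 and Hoxa13 were lost in 8, 7 and 6 of 18 other settings (limma adjusted p up to 0.426, 0.794 and 0.953). Of 6 endothelial markers 6 fell (median -2.39; summed level 8.76 to 10.36 in tumours, 12.34 to 13.40 in negative and 9.32 to 13.53 in positive liver cells), and their part was not tested.

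In gastric adenocarcinomas 5 of 27 members rose (background 35%) and 7 fell (background 23%), with a median of -0.26 against 0.11 over all genes. Hoxb3 ran from 5.14 over 5.35 to 9.66 (lowest, median, highest of 11), against 3.71 to 4.44 in stomach cells (2.07, SE 0.41, limma adjusted p = 9.44e-06). Hoxa5 ran from 3.53 over 4.76 to 5.57, against a dim 2.50 to 3.13 (1.73, SE 0.45). Neither gene overlapped with stomach cells. Hoxb2 rose by 1.46 (SE 0.35), Hoxd8 by 0.75 and Hoxb8 by 0.64. Without the libraries labelled gastric adenocarcinoma 1 and 2 the differences were 1.30 for Hoxb3, 0.90 for Hoxb2, 1.64 for Hoxa5 and 0.66 for Hoxd8, all called, and 0.16 for Hoxb8 (limma adjusted p = 0.588). Hoxc9 fell by 1.07 (SE 0.23), and Hoxa13 (-0.87), Hoxa11 (-0.86), Hoxd11 (-0.68), Hoxb13 (-0.67), Hoxa3 (-0.40) and Hoxd4 (-0.39) followed. The calls of Hoxa13 and Hoxd4 were lost without the stomach negative sample of lowest upper quartile (limma adjusted p = 0.0583 and 0.447), which held Hoxa13 at 7.14 against 2.59 to 2.87 in the other 3. With the upper quartile as a covariate 1 member was called, and Hoxa13, Hoxc9, Hoxd4 and Hoxd11 had differences above 0. Without the libraries labelled gastric adenocarcinoma 1 and 2 Hoxd4 was not called either (-0.35, limma adjusted p = 0.0619). Without the 6 arrays of upper quartile under 6, 4 members were called. Of 10 fibroblast and matrix markers 7 rose (summed level 12.17 to 13.55 in tumours, 7.24 to 10.64 in negative and 7.66 to 9.25 in positive stomach cells), 6 of 6 macrophage markers rose and 5 of 6 stomach markers fell. Their part was not tested.

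In the mean of 5 organs 2 of 27 members were higher in tumours (background 39%), Hoxb3 by 0.52 and Hoxc8 by 0.38, and 15 were lower (background 26.8%), led by Hoxd9 (-0.92, SE 0.12), Hoxd4 (-0.64) and Hoxa11 (-0.62). The organ by state interaction was called for 24 of 27 (background 77.9%), Hoxc4, Hoxd3 and Hoxd13 being the exceptions. With the upper quartile as a covariate 9 members were called in the mean. The call of Hoxc8 was lost in 23 of 42 other settings (limma adjusted p up to 0.211).

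Among the 66 tumours 23 of 23 members differed between the 7 types in the moderated F test, against 95.1% of all genes. Prostatic and uterine adenocarcinomas together exceeded the other 5 types in 20 of 23 members (background 22.9%), 15 of them by more than 1, and were lower in 0 by limma's test (background 17.8%; 21 members in either direction at an unadjusted p under 0.05). The median was 1.24 against 0.02 over all genes. By position 11 of 11 members numbered 9 to 13 were higher (median 1.5), 6 of 7 numbered 5 to 8 (median 1.24) and 3 of 5 numbered 1 to 4 (median 1.11). By cluster it was 8 of 8 in HoxB, 4 of 4 in HoxD, 5 of 7 in HoxA and 3 of 4 in HoxC. The largest differences were those of Hoxb6 (3.83, SE 0.28), Hoxa10 (3.68, SE 0.30), Hoxb13 (3.0, SE 0.16) and Hoxb3 (2.94, SE 0.24). Without the libraries labelled gastric adenocarcinoma 1 and 2 that of Hoxb6 was 4.0 and that of Hoxb3 3.09, and without skin carcinomas 1 and 2 that of Hoxa10 was 3.93. The call of Hoxc9 was lost without uterine tumour 9 (0.18, limma adjusted p = 0.0709). The other probe sets of Hoxb3 and Hoxd13 gave differences of 0.95 and 0.08, against 2.94 and 1.78 for those used.

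Prostatic and uterine tumours differed from each other by cluster. Prostatic minus uterine was called for 18 of 23 members, 7 higher in prostatic (background 15.5%) and 11 higher in uterine tumours (background 15.6%), with a median of -0.05 against -0.03 over all genes. Of 7 HoxA genes 5 were higher in prostatic tumours, and 7 of 8 HoxB and 4 of 4 HoxC genes in uterine tumours. Hoxb13 was at 7.95, 9.24 and 10.97 (lowest, median, highest) in prostatic and 2.73, 3.06 and 3.51 in uterine tumours (6.36, SE 0.26). Hoxd13 was at 5.08, 7.17 and 7.41 against 2.47, 2.67 and 2.82 (4.11, SE 0.33). Both genes also set normal prostate apart from uterus, and neither overlapped. Hoxa10 (3.13, SE 0.47) and Hoxa9 (2.55, SE 0.38) were higher in prostatic tumours, whereas in normal cells Hoxa10 was higher in uterus (-2.94). Hoxb2 was at 3.74, 4.37 and 4.72 in prostatic against 6.72, 8.01 and 8.23 in uterine tumours (-3.55, SE 0.33), and Hoxb6 at 3.95, 5.94 and 7.15 against 7.81, 8.67 and 9.65 (-2.84, SE 0.44). Neither overlapped, nor did Hoxb3 (-1.65) or Hoxb4 (-2.06). Hoxc8 differed by -2.28 (SE 0.48) and Hoxb9 by -1.20. The call of Hoxb9 was lost in 3 of 11 other settings (limma adjusted p up to 0.0594) and that of Hoxc9 without uterine tumour 9 (-0.27, adjusted p = 0.105). For Hoxb9, prostatic tumours 1, 2 and 3 were at 7.2, 6.78 and 5.48 and the other 7 at 4.45 or less.

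Set against the other 6 types, 14 members were higher in prostatic (background 22.1%) and 15 in uterine adenocarcinomas (background 17.3%), 2 in skin carcinomas (background 19.2%), 2 in lymphomas (background 24.3%) and 1 in bronchial adenomas (background 23.9%). By limma's test 0 were higher in gastric (background 23.8%) and 0 in hepatocellular tumours (background 25%), where 9 (background 24.1%) and 20 (background 41.3%) were lower. The bronchial gene was Hoxa5 (0.89, SE 0.28). The member median in bronchial adenomas was -0.62 against -0.11 over all genes. The lymphoma genes were Hoxc4, a gene also known from activated B cells, at 5.72, 6.51 and 4.08 (2.22, SE 0.28, limma adjusted p = 1.4e-09), and Hoxa7 at 4.27, 4.38 and 4.14 (0.95, SE 0.28). With 3 lymphomas, leaving out any 1 left 2 or 3 members called in either direction, against 6 with all of them. In skin carcinomas Hoxd9 (1.06, SE 0.29) and Hoxd8 (0.87, SE 0.29) were higher. Carcinomas 1 and 2 stood above the other 4 in several members. Hoxa9 was at 7.98 and 7.64 there against 3.22 to 3.93, and Hoxa10 at 7.19 and 5.06 against 2.25 to 2.67. The prostate genes Hoxd13 (8.06 and 5.12, against 2.57 to 2.75) and Hoxb13 (4.86 and 6.22, against 2.87 to 3.34) were also higher in these 2 carcinomas. Without them 0 members were called higher in skin carcinomas and 13 lower, against 2 and 6 with them (background 22.5% lower). Hoxc13, the hair follicle gene at the end of HoxC, had its highest values in skin carcinomas 4 and 6 (5.17 and 3.97) and was not tested. Uterine tumour 9 held Hoxa5 at 7.60, Hoxc8 at 8.76, Hoxc9 at 6.55 and Hoxc10 at 6.59, above the other 8. Its summed fibroblast and matrix level was 14.92, against 11.68 to 13.92 in them.

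**Figure D5:**
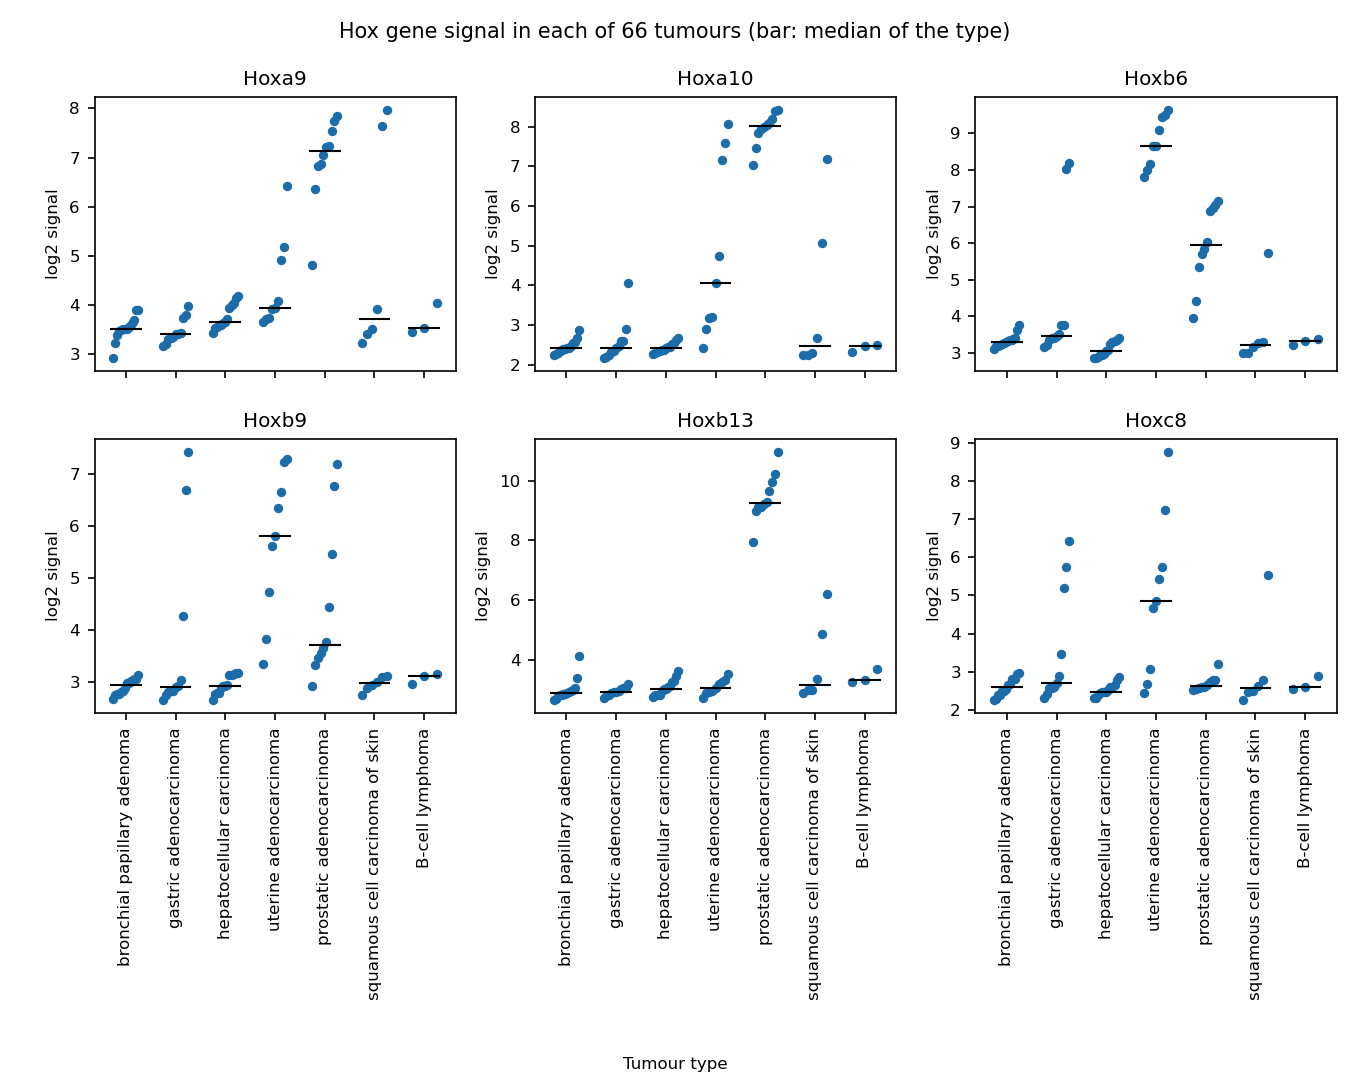
Log2 signal of 6 Hox genes in each of 66 tumours (points) with the median of the type (bar). Hoxb13 and Hoxa10 are high in prostatic tumours and Hoxb6 in uterine tumours, and single tumours lie far above the median of their type, such as gastric 1 and 2 for Hoxb6 at 8.18 and 8.03.

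Lists of genes that work with the Hox clusters were counted in the same comparisons. Of 8 TALE cofactors 3 were higher in normal prostate and uterus (where 32.1% of all genes tested were) and 0 lower by limma's test (24%): Pknox2 (2.92, SE 0.22), Meis1 (1.81, SE 0.25) and Pknox1 (0.34). In prostatic and uterine tumours 3 of 7 were higher (22.9% of all genes; Meis1 2.0, Meis2 1.63, Pknox2 1.48) and Pbx3 was lower (-0.95). In positive prostate cells Meis2 fell by 4.48 (SE 0.76, limma adjusted p = 3.04e-05), and in the mean of 5 organs 6 of 8 cofactors were lower in tumours (26.8% of all genes). The 3 ParaHox genes tested, relatives of the Hox genes that act in the gut, were lower in prostate and uterus: Pdx1 (-2.29), Cdx1 (-1.42) and Cdx2 (-0.94). This was not particular to these organs. Against the other 5 tissues the ParaHox median difference was -1.16 in lung, -1.24 in uterus and -1.04 in prostate. It was -0.72 in liver, -0.23 in stomach and 4.44 in intestine. Of the neighbours of the clusters, Hoxb5os, an antisense transcript of HoxB, was higher in prostate and uterus (2.60, SE 0.30) and in their tumours (2.70, SE 0.19). Evx1, the homeobox gene beyond Hoxa13, was higher in prostatic tumours than in prostate cells (1.89, SE 0.18).
Retinoic acid, made by Aldh1a enzymes and removed by Cyp26 enzymes, is a known inducer of Hox genes. Of 15 genes of this pathway 7 were higher and 4 lower in prostate and uterus (32.1% and 24% of all genes), with Crabp1 (3.72), Aldh1a2 (3.48), Crabp2 (2.13) and Aldh1a3 (1.71) the largest rises. Aldh1a2 (-3.95, SE 0.32) and Cyp26a1 (-3.08) were higher in uterus than in prostate, and Crabp1 (2.35) and Aldh1a3 (1.84) were higher in prostate. In positive uterus cells Crabp1 (-2.02) and Aldh1a2 (-1.96) fell and Dhrs3 (1.88) rose, and in positive prostate cells Aldh1a3 fell by 3.72. Of 22 Polycomb and Trithorax genes, whose proteins keep Hox genes silent or active, 8 were higher and 1 lower in prostate and uterus (32.1% and 24% of all genes; Cbx6 1.88, Rnf2 0.98, Phc1 0.77, Kdm6a 0.75). In the mean of 5 organs 10 of them were higher and 4 lower in tumours (39% and 26.8% of all genes).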

How the data were processed

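The deposited values are log2 probe set signals, made by the authors with RMA in Partek 6.6, per the submitters' processing notes. Of 45141 probe sets 28898 carry 1 gene, 551 several and 15692 none. Symbols were updated by Entrez identifier with a RefSeq table of GRCm38.p6, and the probe set of highest mean stood for each of 17097 genes. Group means were fitted with limma 3.58.1 (R 4.3.3; lmFit, eBayes) over 51 sorted samples (14081 genes above the array median in 3 arrays), 66 tumours (13456) and all 117 samples for tumour against normal (14663). P-values were Benjamini-Hochberg adjusted over all genes tested, with a threshold of 0.05, and intervals are 95%. The fit was tested on simulated data. Depth has no meaning for arrays, and the number of samples limits the precision. The members, the gene lists and the tests were chosen with earlier results of these data known. Every member is named. Values by sample are given for called members, up to 8 a comparison by size, and of other lists up to 4 called genes. Alternatives covered the probe set rule, filter, normalization, array quality, fit, reference cells and left-out samples. Leaving out libraries that stood apart was chosen after seeing the data. The deposited table's scale was taken from the notes. Figures were drawn with matplotlib 3.10.9.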

Additional observations from a re-analysis of the deposited data

Results flagged for a closer look

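Single samples lay far from the rest of their group by Dixon's test in 6 of the 31 pairs of a gene and a group of 4 to 10 samples that were tested. Chance flags about 1 in 20 groups, but these pairs were chosen because their values are printed, some of them for a sample that stands apart, so the share cannot be set against chance. In the stomach Prom1-negative sample of lowest upper quartile these were Hoxa13 at 7.14, Hoxc9 at 6.62, Hoxa10 at 5.70 and Hoxd12 at 6.66, each above the other 3. Hoxa5 was high in liver Prom1-positive sample 2, at 7.87, and Hoxa10 was low in uterus Prom1-positive sample 1, at 6.78.

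The difference between Prom1-positive and Prom1-negative cells itself differed between the 6 tissues in 10 members, by limma's interaction test with the adjusted p in parentheses: Hoxa10 (0.00636), Hoxa11 (2.87e-05), Hoxb6 (0.00983), Hoxb8 (0.000252), Hoxb13 (0.0158), Hoxd4 (1.31e-05), Hoxd8 (5.2e-05), Hoxd9 (3.61e-05), Hoxd10 (1.24e-06) and Hoxd11 (0.0126). Among all genes tested 21.2% passed this test.

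The difference between tumours and normal cells differed between the 5 organs in 24 members, by limma's interaction test with the adjusted p in parentheses: Hoxa2 (1.06e-05), Hoxa3 (0.00314), Hoxa5 (7.81e-11), Hoxa7 (9.27e-05), Hoxa9 (7.34e-06), Hoxa10 (4.34e-13), Hoxa11 (8.23e-20), Hoxa13 (0.00376), Hoxb2 (2.61e-12), Hoxb3 (4.35e-11), Hoxb4 (6.25e-14), Hoxb5 (1.11e-13), Hoxb6 (0.000569), Hoxb8 (0.0161), Hoxb9 (6.38e-05), Hoxb13 (0.0149), Hoxc8 (0.000986), Hoxc9 (0.000378), Hoxc10 (0.00534), Hoxd4 (2.95e-07), Hoxd8 (4.57e-07), Hoxd9 (4.97e-07), Hoxd10 (1.67e-08) and Hoxd11 (0.00216). Among all genes tested 77.9% passed that test.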

How the results depend on the processing

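Of 4354 recomputed values of called members, 4014 kept their direction and call, 14 changed sign and the others lost the call; of 924 recomputed counts of members called, 872 stayed within 1.5 times. The cause of the changes below was not tested. For the Prom1 sort, the mean of 6 tissues (3 called) had 5 with the mean of probe sets, repeated quantile normalization, the upper quartile as a covariate, all 117 samples in the fit or without arrays of upper quartile under 6, and 11 with array weights. Stomach (0) had 2 with repeated quantile normalization, the covariate or all 117 samples, and 1 with array weights. Liver (3) had 7 without arrays of upper quartile under 6 and 8 with array weights, uterus (10) had 17 and the interaction (10) had 18 with array weights, and prostate (8) had 5 with all 117 samples and 3 with prostate samples only. Replicate numbers were shared between positive and negative cells. Of 19 same-numbered pairs 7 deviated together at a correlation above 0.1 (range -0.34 to 0.59). The labels do not say which samples came from the same animal, and these correlations cannot decide it. Some positive and negative samples of a tissue carry consecutive sample codes in the labels, and pairing by code was not tested. With the replicate number as a block prostate had 4 called and the mean of 6 tissues 1, and no other count moved by over 1.5 times. For tumours against normal cells, gastric tumours (12) had 20 with no filter, 4 without arrays of upper quartile under 6, 1 with the covariate and 7 with samples of the organ only. Hepatocellular carcinomas (12) had 7 with the covariate and 6 against negative cells and 4 against positive cells without liver positive sample 2, prostatic tumours (13) had 21 with array weights and 6 against negative cells, and the mean of 5 organs (17) had 9 with the covariate. Prostate minus uterus (11) had 17 with array weights. Among positive samples only, single tissues against the others had 12 in lung (19), 10 in stomach (17), 7 in liver (12) and 9 in intestine (18). Among tumour types, hepatocellular carcinomas (20) had 13 with the covariate, lymphomas (6) had 15 with array weights, and skin carcinomas (8) had 13 without carcinomas 1 and 2. The sign changed in gastric tumours for Hoxd4 (0.070 without arrays of upper quartile under 6, 0.36 with the covariate), Hoxa13 (0.41), Hoxc9 (0.10) and Hoxd11 (0.055 with the covariate), and in the mean of 5 organs for Hoxa13 (0.21) and Hoxc9 (0.11). It also changed for Hoxd9 in prostatic tumours against negative cells (0.029), in hepatocellular carcinomas against positive cells without liver positive sample 2 for Hoxa5 (0.62), Hoxb2 (0.0062) and Hoxb4 (0.045), and among positive samples for Hoxd11 in prostate and uterus (-0.092) and for Hoxd4 (1.05) and Hoxd9 (0.25) in prostate minus uterus. Leaving out 1 sample at a time gave 3 to 7 members in the mean sort, 1 to 8 in liver, 0 to 2 in stomach, 10 to 16 in the sort interaction, 8 to 13 in prostatic tumours and 2 to 3 in lymphomas. The other counts stayed within 1.5 times in the 69 leave-one-out fits.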
